A study of Mus musculus with 12 samples.

Results

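The 8 glycosidase genes described here encode enzymes that remove single sugars from the ends of glycans, and were chosen by name. They are Hexa, Gusb, Gla and Glb1, which release N-acetylhexosamine, glucuronic acid and galactose, Fuca1 and Fuca2, which release fucose, and Man2b1 and Man2b2, which release mannose. Each of 7 genes had 1 probe-set annotated to its symbol alone, on an array of 41345 probe-sets that measures 22180 genes in this way. The probe-set of Glb1 is also annotated to Tmppe, an overlapping gene, so it is given as a shared signal and was left out of every count.

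The study compared the corpus and the cauda of the mouse epididymis between Dicer1fl/fl controls and conditional knockouts with the Cre driver, Defb41iCre/wt;Dicer1fl/fl (cKO), with 3 arrays in each of 4 groups and 12 in all. Both alleles of Dicer1 were floxed in all 4 groups, and all mice had a mixed background of C57Bl/6N and SV129. The age of the mice was not given in the sources used here. Cre was driven by Defb41 in the principal cells of the proximal epididymis (initial segment and caput), upstream of the corpus and the cauda, and each array held the pooled left and right tissue of a region from 1 mouse. The 3 mice of a genotype gave both regions, so that the corpus and cauda arrays share animals, but the labels do not say which arrays belong to the same mouse, and the regions were compared as separate samples. Messenger RNA was hybridized to Affymetrix Mouse Gene 2.0 ST arrays, and the values are log2 intensities after robust multi-array averaging (RMA), on which a difference of 1 is a 2-fold change. An intensity ranks arrays for 1 probe-set and does not rank genes.

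Spermatozoa pass through the caput, corpus and cauda in this order, and their surface glycans are remodelled on the way. Acid glycosidases are made by the epithelium for its own lysosomes, where they break down glycoproteins and glycolipids from the non-reducing end, and they are also released into the fluid around the sperm. Their delivery to lysosomes relies on a mannose 6-phosphate tag, and many of their genes are read by the transcription factor TFEB through the CLEAR element, whose core is CACGTG. The arrays measured transcripts, and neither enzyme activity nor secretion.

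The start regions of 4 genes are shown in lower case with each CACGTG in capitals, since the cauda arrays of 3 of them (Fuca1, Hexa and Gusb) lay below the corpus arrays in both genotypes and those of Gla overlapped. The sequences are those of RefSeq on GRCm38.p6, from 250 bases before to 50 bases after the annotated start, 5′ to 3′ on the strand of the gene. Fuca1 lies at chr4:135920476-135920775 on the + strand, Hexa at chr9:59539290-59539589 on the + strand, Gusb at chr5:130003000-130003299 on the - strand and Gla at chrX:134600956-134601255 on the - strand.
Fuca1: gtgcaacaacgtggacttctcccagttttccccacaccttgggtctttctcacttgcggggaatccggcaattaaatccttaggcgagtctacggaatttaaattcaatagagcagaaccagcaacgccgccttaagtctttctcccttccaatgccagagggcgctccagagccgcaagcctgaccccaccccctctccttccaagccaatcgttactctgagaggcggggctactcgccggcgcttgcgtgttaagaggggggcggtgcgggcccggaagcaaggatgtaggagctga
Hexa: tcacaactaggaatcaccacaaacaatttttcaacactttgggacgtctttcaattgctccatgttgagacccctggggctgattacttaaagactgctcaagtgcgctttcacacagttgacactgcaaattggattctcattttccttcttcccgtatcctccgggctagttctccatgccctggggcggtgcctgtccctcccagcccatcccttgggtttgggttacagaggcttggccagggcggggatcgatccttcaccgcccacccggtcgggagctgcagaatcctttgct
Gusb: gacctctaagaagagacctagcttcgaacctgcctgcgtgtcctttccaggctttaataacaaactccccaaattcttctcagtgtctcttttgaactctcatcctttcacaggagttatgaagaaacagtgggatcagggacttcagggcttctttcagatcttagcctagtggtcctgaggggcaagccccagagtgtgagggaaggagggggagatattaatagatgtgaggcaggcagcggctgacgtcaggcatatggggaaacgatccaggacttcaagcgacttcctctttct
Gla: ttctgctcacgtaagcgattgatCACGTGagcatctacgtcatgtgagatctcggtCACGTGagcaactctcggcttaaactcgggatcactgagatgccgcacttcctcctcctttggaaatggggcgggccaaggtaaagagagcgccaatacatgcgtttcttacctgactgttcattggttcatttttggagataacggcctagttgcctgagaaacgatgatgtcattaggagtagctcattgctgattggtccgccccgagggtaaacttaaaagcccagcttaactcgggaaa
Among the 8 genes, all of which matched, CACGTG was found in 2, Gla and Glb1. Gla held 2 copies, with first bases 227 and 194 bases before the start, each within the longer palindrome TCACGTGA. Glb1 held 1 copy whose first base lay 48 bases before the start. The probe-set shared by Glb1 and Tmppe was lower in the control cauda without overlap, by -0.77 on the log2 scale, while its cKO regions overlapped. Any relation of CACGTG to the regional differences was not tested. The 6 letters were present in 7.15% of all 32851 promoters of this length, and TCACGTGA in 0.974%. In the promoters of the other glycosidase, partner, sulfatase, protease and membrane genes described below, not all of them lysosomal, 13 of 42 held CACGTG (31.0%). These 42 also had more G and C (median 57.2%) and more CG pairs (median 15.5) than all promoters (52.7% and 7.0). CACGTG itself holds a CG pair, and the shares were not matched for this. The motif reads the same on both strands. A match describes the letters only, and no match says only that they are not in this window.

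Array medians lay between 5.19 and 5.31, and any 2 arrays of a group had a correlation of 0.970 to 0.985, against 0.957 to 0.984 for arrays of different groups. The first principal component (26.0% of the variance) parted the regions. On the second (13.8%), corpus cKO replicates 1 and 2 lay at -58.8 and -53.7, apart from corpus cKO replicate 3 at 36.6 and the corpus controls at 9.7 to 35. Main differences that rest on the corpus cKO arrays are also given without these 2, which leaves 1 corpus cKO array whose spread is assumed to be that of the other groups. Dicer1 itself ranged from 7.37 to 7.65 in the control corpus, 7.41 to 7.61 in the cKO corpus, 7.51 to 7.64 in the control cauda and 7.71 to 7.77 in the cKO cauda, and because Cre acts upstream of both regions this checks no label. Of 10 principal cell markers 7 had a probe-set of their own, and 6 of them had means above the array medians, with Cftr below. The labels describe the labelling used for miRNA arrays, whereas the methods name the gene array for these samples.

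Transcripts of all 7 glycosidases with a probe-set of their own were above the array medians on each of the 12 arrays. Corpus and cauda arrays did not overlap for 6 of the 7 in controls, beside 22.0% of all probe-sets, and for 3 in the cKO, beside 18.2%. The cauda of controls had lower Fuca1, Hexa, Man2b1 and Gusb means than the corpus, and higher Fuca2, Man2b2 and Gla means. Only the Fuca1 difference passed the adjusted threshold, and in no gene did the cKO differ from the control past it. In whole tissue, fewer cells of a type and less RNA per cell cannot be told apart.

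**Figure D1:**
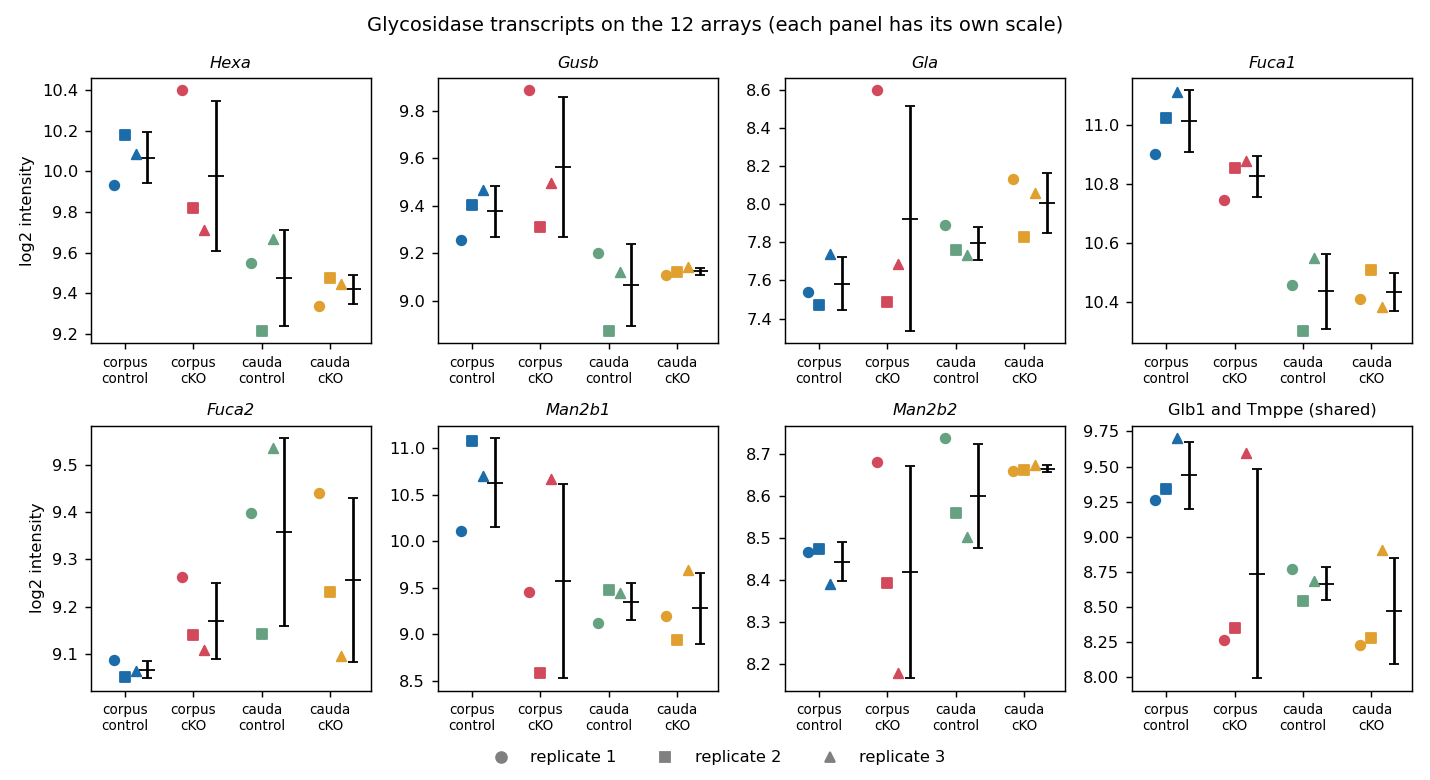
Log2 intensity (vertical axis, a separate scale for each panel) of the 7 glycosidase transcripts and of the probe-set shared by Glb1 and Tmppe on each of the 12 arrays, by group (horizontal axis). Symbols stand for replicates 1 to 3 and bars for the mean ± SD of 3 arrays. All cauda arrays lie below all corpus arrays for Fuca1, Hexa and Gusb, and corpus cKO replicate 1 is the highest array for Hexa, Gusb and Gla.

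Fuca1 encodes the lysosomal α-L-fucosidase, whose loss causes fucosidosis. The control corpus arrays read 10.90, 11.02 and 11.11 and the control cauda arrays 10.46, 10.30 and 10.55. In the cKO, the corpus arrays read 10.75, 10.85 and 10.88 and the cauda arrays 10.41, 10.51 and 10.38. Every cauda array of either genotype thus lay below every corpus array. In controls the group means were 11.01 ± 0.10 (SD, n = 3) in the corpus and 10.44 ± 0.13 (SD, n = 3) in the cauda, a log2 difference of -0.58 (standard error 0.12, 95% interval -0.84 to -0.32, adjusted p = 0.0226 from limma), or 1.49-fold lower in the cauda. In the cKO, where the means were 10.83 ± 0.07 and 10.44 ± 0.07 (SD, n = 3), the log2 difference was -0.39 (standard error 0.12, unadjusted p = 0.00686, adjusted p = 0.135 from limma) and was not called. With the variance of its own probe-set alone, this difference reached an adjusted p of 0.0478, and without corpus cKO replicates 1 and 2 it was -0.44 (adjusted p = 0.345). The regional differences of the 2 genotypes were compared directly, and the contrast between them was -0.18 (95% interval -0.55 to 0.18, adjusted p = 0.899 from limma).

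The call of Fuca1 in controls rested on few arrays. It was lost without cauda control replicate 1 (adjusted p = 0.0570), cauda control replicate 2 (0.0913), corpus control replicate 2 (0.0732) or corpus control replicate 3 (0.102), and in a fit of only these 2 groups (0.0959). The log2 difference itself stayed between -0.63 and -0.51 in the alternatives run.

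Fuca2 encodes a second α-L-fucosidase, which is found in secretions and plasma. Its control corpus arrays were close together at 9.09, 9.05 and 9.06, and its control cauda arrays read 9.40, 9.14 and 9.53. The corpus cKO arrays read 9.26, 9.14 and 9.11 and the cauda cKO arrays 9.44, 9.23 and 9.10. All control cauda arrays were above the control corpus arrays, whereas the cKO arrays of both regions overlapped. The log2 difference was 0.29 in controls (standard error 0.14, adjusted p = 0.335 from limma) and 0.09 in the cKO (standard error 0.14, adjusted p = 0.882 from limma), opposite in sign to that of Fuca1. The cKO value was 0.15 without corpus cKO replicates 1 and 2.

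Hexa encodes the α subunit of lysosomal β-hexosaminidase, the enzyme lacking in Tay-Sachs disease. Control arrays read 9.93, 10.18 and 10.09 in the corpus, against 9.55, 9.21 and 9.67 in the cauda. The cKO corpus arrays read 10.40, 9.82 and 9.71 and the cKO cauda arrays 9.34, 9.47 and 9.45. As for Fuca1, no cauda array reached the level of any corpus array. The log2 difference between cauda and corpus was -0.59 in controls (standard error 0.19, unadjusted p = 0.00915, adjusted p = 0.132 from limma) and -0.56 in the cKO (standard error 0.19, unadjusted p = 0.0126, adjusted p = 0.189 from limma). Leaving out any 1 array gave adjusted p-values from 0.0556 to 0.358 in controls. Without corpus cKO replicates 1 and 2, the cKO value was -0.29 (adjusted p = 0.685 from limma).

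Gusb encodes β-glucuronidase, a tetrameric lysosomal enzyme. Control corpus arrays read 9.26, 9.40 and 9.47 and control cauda arrays 9.20, 8.87 and 9.12. In the cKO the corpus arrays read 9.89, 9.31 and 9.49, and the cauda arrays 9.11, 9.12 and 9.14. Corpus and cauda arrays did not overlap in either genotype, although corpus control replicate 1 and cauda control replicate 1 lay close together. The log2 difference was -0.31 in controls (standard error 0.16, adjusted p = 0.378 from limma) and -0.44 in the cKO (standard error 0.16, unadjusted p = 0.0177, adjusted p = 0.228 from limma). Without corpus cKO replicates 1 and 2 the cKO value was -0.37 (adjusted p = 0.493 from limma).

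Gla encodes α-galactosidase A, the enzyme deficient in Fabry disease, and its gene is X-linked. Control arrays read 7.54, 7.47 and 7.74 for the corpus, against 7.89, 7.76 and 7.73 for the cauda. The cKO corpus arrays read 8.60, 7.49 and 7.69 and the cKO cauda arrays 8.13, 7.83 and 8.06. The regions overlapped in both genotypes, with log2 differences of 0.21 in controls and 0.08 in the cKO (standard error 0.24 in each, adjusted p = 0.749 and 0.946 from limma). The cKO value was 0.42 without corpus cKO replicate 1, -0.14 without replicate 2 and -0.04 without replicate 3, so that single arrays set its sign. Without both replicates 1 and 2 it was 0.32 (adjusted p = 0.601 from limma).

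Man2b1 encodes the lysosomal α-mannosidase, whose loss causes α-mannosidosis. It was the most variable of the 7 transcripts, with a range of 2.49 on the log2 scale over the 12 arrays. The control corpus arrays read 10.12, 11.08 and 10.71 and the control cauda arrays 9.12, 9.48 and 9.45, without overlap. The log2 difference in controls was -1.28 (standard error 0.44, 95% interval -2.24 to -0.33, unadjusted p = 0.0132, adjusted p = 0.163 from limma), a mean 2.43-fold lower in the cauda. It reached an adjusted p of 0.0368 without corpus cKO replicate 3 with the difference unchanged. In the cKO the cauda arrays read 9.20, 8.94 and 9.70 and overlapped the corpus arrays, with a log2 difference of -0.29 (standard error 0.44, adjusted p = 0.874 from limma). This value depended on which corpus cKO arrays were used. It was -1.39 without corpus cKO replicates 1 and 2 (adjusted p = 0.141 from limma), -0.78 without replicate 2 and 0.26 without replicate 3.

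Man2b2 encodes the mannosidase first described as specific to the epididymis, in the pig. Its range of 0.56 was among the narrowest here, beside 0.48 for Fuca2. The control corpus arrays read 8.47, 8.47 and 8.39, and the control cauda arrays 8.74, 8.56 and 8.50. In the cKO the corpus arrays spread from 8.68 and 8.39 to 8.18, while the cauda arrays were nearly equal at 8.66, 8.66 and 8.67. The log2 difference was 0.16 in controls and 0.25 in the cKO (standard error 0.14 in each, adjusted p = 0.659 and 0.533 from limma), and the cKO value was 0.49 (adjusted p = 0.247) without corpus cKO replicates 1 and 2. The 2 mannosidase genes therefore had regional estimates of opposite sign, as the 2 fucosidase genes had.

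The probe-set shared by Glb1, which encodes lysosomal β-galactosidase, and Tmppe read 9.44 ± 0.24 in the control corpus, 8.74 ± 0.74 in the cKO corpus, 8.67 ± 0.12 in the control cauda and 8.47 ± 0.38 in the cKO cauda (SD, n = 3). Its log2 difference between cauda and corpus was -0.77 in controls (standard error 0.32, adjusted p = 0.263 from limma). The part of each gene in this signal cannot be told apart.

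**Figure D2:**
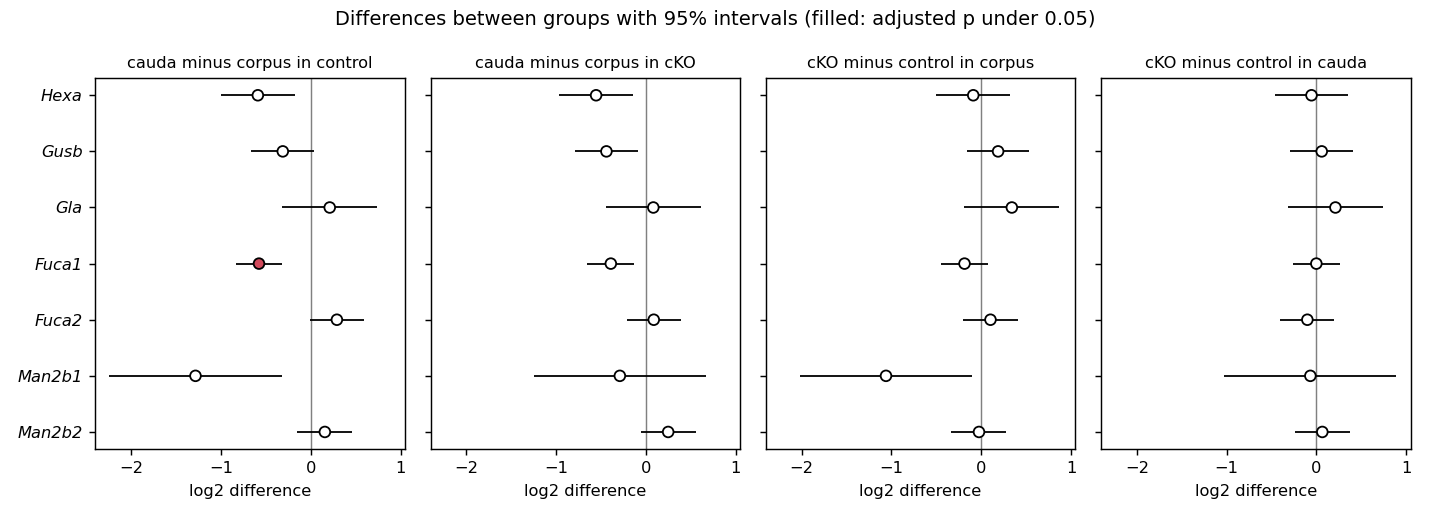
Log2 differences between group means (horizontal axis) with 95% intervals from the limma fit for the 7 glycosidase transcripts (vertical axis) in 4 comparisons. The filled point, Fuca1 at -0.58 in controls, is the single difference at an adjusted p under 0.05, and in the cauda all 7 intervals of cKO minus control cross 0.

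Counted together, 1 of 7 glycosidases was lower and 0 were higher in the control cauda at the adjusted threshold, beside 1.75% of all probe-sets lower and 1.77% higher. At an unadjusted p under 0.05 there were 3 (Fuca1, Hexa and Man2b1, all lower), beside 15.9% of all probe-sets. Arrays of the 2 regions did not overlap in 6 of 7, all but Gla, beside 22.0%. In the cKO 0 of 7 were called by limma, beside 1.05% lower and 1.64% higher, and 3 (Fuca1, Hexa and Gusb) had an unadjusted p under 0.05, beside 12.8%. The same 3 did not overlap between the regions of the cKO, beside 18.2%. The median log2 difference of the 7 was -0.31 in controls and -0.29 in the cKO, and the medians of all probe-sets were -0.01 and 0.01. The log2 differences of the 2 genotypes come from separate arrays. Their limma p-values are not independent, because the variance of each probe-set was estimated from the arrays of all groups.

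Marker transcripts of several cell types were also compared between the regions. Of all probe-sets, 1.77% were called higher and 1.75% lower in the control cauda, and 1.64% higher in the cKO cauda. Smooth muscle markers passed the adjusted threshold with higher levels in the cauda in 8 of 8 cases in controls and in 6 of 8 in the cKO. Their summed linear intensity ranged from 8895 to 10827 in control corpus arrays and from 28016 to 31350 in control cauda arrays. The cKO sums were 12173 to 18658 in the corpus and 28672 to 36434 in the cauda. The 7 principal cell markers summed to between 2029 and 5477 in the corpus of controls, a range that overlaps that of 1259 to 3182 in their cauda. Their median log2 difference between cauda and corpus was -1.33 in controls, with 5 of 7 negative. As chosen, this list shares Defb41, Lcn8, Lcn9, Cst11 and Rnase10 with the caput markers, so these lists are not separate measures of cell type and region. None of the smooth muscle markers was below the array medians. Of the other lists, 1 of 7 fibroblast and 1 of 8 caput markers were higher in the control cauda, 1 of 7 clear cell and 1 of 7 T and B cell markers were lower, and 0 of 5 basal cell and 0 of 12 macrophage markers were called. Clear cell markers had positive differences for 5 of 7 genes in controls, with a median of 0.19 and a lowest value of -3.29. Their sums were 3012 to 3560 for the control corpus, against 3763 to 4098 for the control cauda. In controls, fibroblast sums were 7655 to 9796 for the corpus, against 13144 to 15391 for the cauda, and caput sums were 17569 to 25608 against 8353 to 13768. Sperm and spermatid markers had positive differences for 10 of 11 genes in controls, with a median of 1.81 on the log2 scale. Of these markers 7 had an unadjusted p under 0.05, beside 15.9% of all probe-sets, and 0 were called. Their sums of 5031 to 8042 for the corpus did not overlap those of 9280 to 14371 for the cauda. The part of these markers in the lower Fuca1, Hexa, Gusb and Man2b1 signals of the cauda was not tested.

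The deletion of Dicer1 in the caput was next compared with the control within each region downstream of it. No glycosidase was called in the corpus by limma (0 of 7, beside 0% of all probe-sets), nor with the variance of each probe-set alone. Man2b1 was the 1 member with an unadjusted p under 0.05, beside 8.35% of all probe-sets. Cauda arrays gave 0 of 7 at either level, beside 0% at the adjusted and 5.66% at the unadjusted threshold. The direct contrast of the corpus and cauda effects also gave 0 of 7 at either level, beside 0% and 6.50%. The median log2 differences of the 7 were -0.03 in the corpus, against -0.03 for all probe-sets, and -0.00 in the cauda, against 0.02 for all probe-sets.

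Man2b1 had the widest difference, and it was divided among the replicates. The corpus cKO arrays read 9.46, 8.59 and 10.67, against 10.12, 11.08 and 10.71 in controls, so that replicates 1 and 2 lay below all controls and replicate 3 among them. The log2 difference was -1.06 (standard error 0.44, 95% interval -2.02 to -0.10, unadjusted p = 0.0330, adjusted p = 0.534 from limma). Without corpus cKO replicate 3 it was -1.61 (adjusted p = 0.0390 from limma), and without replicates 1 and 2 it was 0.04 (adjusted p = 0.998 from limma). Replicates 1 and 2 are the arrays that stood apart on the second component. The shared Glb1 and Tmppe probe-set was divided in the same way, at 8.26 and 8.35 in replicates 1 and 2 and 9.59 in replicate 3, with a log2 difference of -0.70 (standard error 0.32, adjusted p = 0.597 from limma). Clear cell marker sums were also lower in replicates 1 and 2, at 2814 and 2835, than in replicate 3, at 3552, beside 3012 to 3560 in controls, and 1 of the 7 clear cell markers was below the array medians. Their part in the Man2b1 signal was not tested.

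Corpus cKO replicate 1 held the highest reading of all 12 arrays for Hexa (10.40), Gusb (9.89) and Gla (8.60), while replicates 2 and 3 were below the controls for Hexa and close to them for Gusb and Gla. The log2 differences of cKO minus control were -0.09 for Hexa, 0.19 for Gusb and 0.34 for Gla (adjusted p = 0.951, 0.829 and 0.784 from limma). Without this array they were -0.30, 0.03 and 0.00, and without both replicates 1 and 2 they were -0.35, 0.12 and 0.10. The same array had the highest macrophage signal, with 12 markers summing to 16193, against 6815 and 4721 in corpus cKO replicates 2 and 3 and 3274 to 5300 in the control corpus. All 12 markers had positive log2 differences in the cKO corpus, with a median of 0.99. At an unadjusted p under 0.05 there were 10, beside 8.35% of all probe-sets, and at the adjusted threshold 0, beside 0%. None of the 12 was below the array medians. Fibroblast markers (7 of 7 positive, 0 called) also summed highest in this array among the corpus arrays, at 16723, with 7655 to 9796 in the control corpus. Sperm and spermatid markers also summed highest in this array among the corpus arrays, at 9597, with 5031 to 8042 in the control corpus. So did the lysosomal proteases and membrane proteins described below, at 40485, with 27011 to 31224 in the control corpus. Smooth muscle, principal cell and clear cell markers did not, at 13298, 2027 and 2814. The part of any of these signals in the Hexa, Gusb and Gla readings was not tested.

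**Figure D3:**
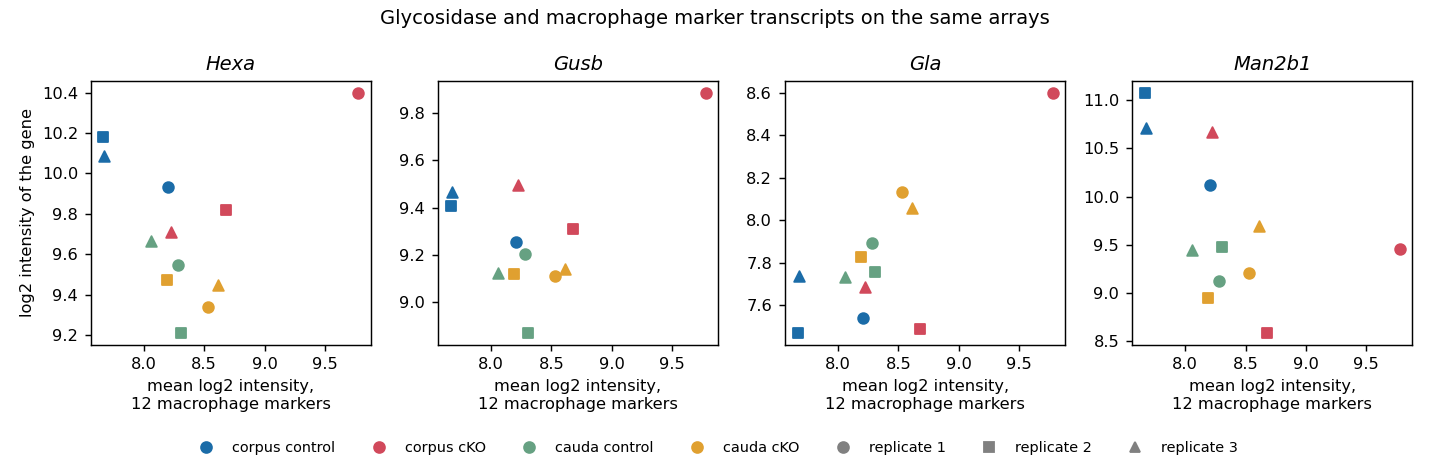
Log2 intensity of Hexa, Gusb, Gla and Man2b1 (vertical axis, a separate scale for each panel) against the mean log2 intensity of 12 macrophage markers (horizontal axis) on each of the 12 arrays. Corpus cKO replicate 1, at a marker mean of 9.78, is the highest array for Hexa, Gusb and Gla and reads 9.46 for Man2b1.

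In the corpus, Fuca1 had lower readings in all 3 cKO arrays than in all 3 controls, a log2 difference of -0.19 (standard error 0.12, adjusted p = 0.745 from limma). Fuca2 had higher ones, by 0.10 (standard error 0.14, adjusted p = 0.913 from limma). These were the 2 of 7 whose arrays did not overlap, beside 11.8% of all probe-sets. Man2b2 differed by -0.03 (95% interval -0.33 to 0.28, adjusted p = 0.984 from limma). Without corpus cKO replicates 1 and 2 the values of Fuca1, Fuca2 and Man2b2 were -0.13, 0.0406 and -0.26. In the cauda 0 of 7 were without overlap, beside 10.8%, and all log2 differences lay between -0.10 (Fuca2) and 0.21 (Gla). The 95% interval of Fuca1 in the cauda was -0.26 to 0.26, while that of Man2b1 was -1.03 to 0.89 and leaves room for a 2-fold change in the lower direction. An exact permutation test of a single value in 3 against 3 arrays has 0.1 as its smallest p.

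Macrophage marker sums were closer together in the cauda, at 4270 to 5202 in controls and 4966 to 6569 in the cKO. Sperm and spermatid transcripts differed there, with sums of 9280 to 14371 in controls and 4536 to 5166 in the cKO. Of their 11 markers 10 were lower at an unadjusted p under 0.05, beside 5.66% of all probe-sets at this level in either direction. At the adjusted threshold there were 0. None of these sperm markers was below the array medians. No glycosidase had an unadjusted p under 0.05 on the same arrays.

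Across the 12 arrays, the glycosidases did not form 1 group. Hexa and Gusb had a Pearson r of 0.88, and their deviations from the 4 group means had an r of 0.87. Corpus cKO replicate 1 is an extreme point for both, and without it, over 11 arrays, the values were 0.82 and 0.67. Hexa and Fuca1 had an r of 0.82 with and 0.95 without this array, and the r of their deviations was 0.17 with and 0.81 without it. For Gusb and Gla the r of the deviations was 0.83, and without this array 0.46. Man2b1 and Man2b2 had an r of -0.55, and Fuca1 and Fuca2 one of -0.54, which were -0.54 and -0.55 over the 11 arrays. These correlations describe 12 arrays from 4 groups, and the arrays share region, genotype and cell makeup.

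Among 22173 other genes, the transcript most like Hexa over the 12 arrays was Edem1 (r of 0.93), which was also the one most like Gusb (r of 0.93). Edem1 encodes a mannosidase-like protein that directs misfolded glycoproteins to degradation from the endoplasmic reticulum. The nearest gene to Fuca1 was Ramp3 (r of 0.97), which encodes a partner of calcitonin-family receptors. Slc30a2, a zinc transporter gene, was nearest to Man2b2 (r of 0.90), Psmd7, a proteasome subunit gene, to Fuca2 (r of 0.92), and Parvb, a focal adhesion gene, to Gla (r of 0.95). For Man2b1 it was Gm5724 (r of 0.96), whose mean of 2.97 is below the array medians. These searches included corpus cKO replicate 1. The highest of so many correlations is high by selection, and each is given as a description.

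Other genes of glycan breakdown were described to place these enzymes. Of 20 other glycosidases, lysosomal or not, 16 had a probe-set of their own. Of these, 3 were lower and 0 higher in the control cauda at the adjusted threshold, beside 1.75% and 1.77% of all probe-sets. Their median log2 difference was -0.33. Glb1l3, a relative of Glb1, fell from 12.16 ± 0.30 in the control corpus to 9.12 ± 0.56 in the control cauda (SD, n = 3), a log2 difference of -3.04 (standard error 0.33, adjusted p = 0.000521 from limma). Naglu, the lysosomal α-N-acetylglucosaminidase, fell by 0.92 (adjusted p = 0.00603 from limma) and Manba, the lysosomal β-mannosidase, by 1.59 (adjusted p = 0.0106 from limma) on the log2 scale. The call of Manba was lost without corpus control replicate 3 (adjusted p = 0.0575). In the cKO Glb1l3 fell by 2.30 (adjusted p = 0.00303 from limma) and Naglu by 0.68 (adjusted p = 0.0347), while Man2c1, a cytosolic α-mannosidase, was higher by 0.84 (adjusted p = 0.0292). The Naglu call in the cKO held on leaving out 4 of the 12 arrays (adjusted p up to 0.152 for the others) and that of Man2c1 on leaving out 7, being lost without corpus cKO replicates 1 or 2 or any of the cauda cKO arrays (adjusted p up to 0.131). Without corpus cKO replicates 1 and 2 together, Glb1l3 stayed called in the cKO (-2.72, adjusted p = 0.0178 from limma), whereas Naglu (-0.82, adjusted p = 0.122) and Man2c1 (0.50, adjusted p = 0.402) did not.

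**Figure D4:**
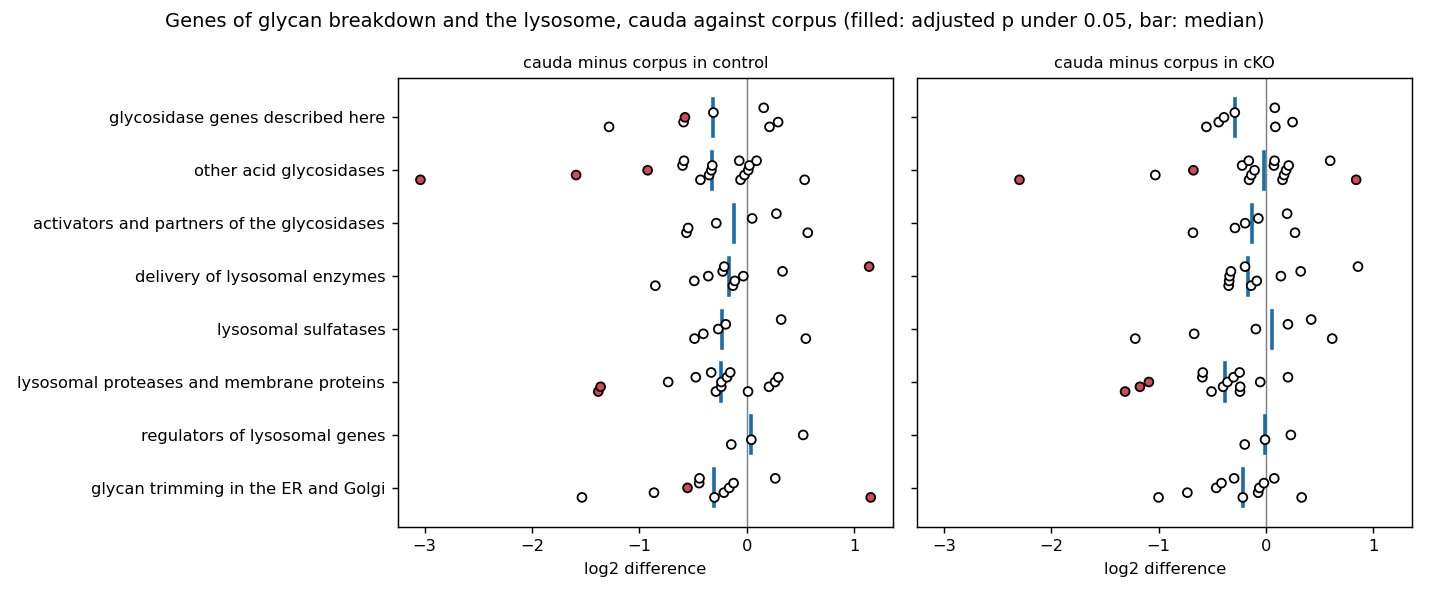
Log2 differences between cauda and corpus (horizontal axis) in control (left) and cKO mice (right) for the glycosidases described here and for 7 further lists of genes (rows), 1 point a gene. Filled points passed an adjusted p of 0.05 in limma and vertical bars are list medians, which are -0.31 and -0.29 for the glycosidases described here. The row named other acid glycosidases also holds the cytosolic Man2c1.

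Partners of the enzymes were not called in any comparison, where at most 1.77% of all probe-sets were called in 1 direction. Of these 6 genes, Gm2a, the GM2 activator that presents ganglioside to β-hexosaminidase, had log2 differences of -0.55 in controls and -0.68 in the cKO (adjusted p = 0.181 and 0.106 from limma). The cKO value was -0.93 (adjusted p = 0.00379) without corpus cKO replicate 3, and -0.18 (adjusted p = 0.802) without replicates 1 and 2. Aga, the lysosomal aspartylglucosaminidase, had the smallest p for the contrast of the corpus and cauda effects of the cKO, at -0.55 (adjusted p = 0.726 from limma). Ctsa, the protective protein of β-galactosidase and neuraminidase, read 8.66 ± 0.11 in the control corpus and 9.43 ± 0.69 in the cKO corpus (SD, n = 3), and Neu1, the neuraminidase of the same complex, read 10.61 ± 0.26 and 9.96 ± 0.47 (SD, n = 3). Their log2 differences of 0.76 and -0.65 did not pass the threshold (adjusted p = 0.476 and 0.430 from limma), and the 2 genes were picked after their values were seen. Across the cKO corpus arrays Ctsa ranged from 8.98 to 10.22 and Neu1 from 9.63 to 10.49. Their differences are not given here without corpus cKO replicates 1 and 2.

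Among 10 genes of the delivery route, Gnptab, which encodes the enzyme that begins the mannose 6-phosphate tag, was higher in the control cauda by 1.14 on the log2 scale (standard error 0.27, adjusted p = 0.0414 from limma). This call held on leaving out each of the 3 corpus cKO arrays and was lost on leaving out any of the others (adjusted p up to 0.141). The difference was 0.86 in the cKO (adjusted p = 0.150 from limma). The other 9 genes of the route were not called in either genotype. Of all probe-sets, 1.77% were called higher and 1.75% lower in the control cauda, and 1.64% and 1.05% in the cKO cauda.

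Lysosomal proteases and membrane proteins (14 genes) had 2 lower members in the control cauda and 3 in the cKO cauda. Of all probe-sets, 1.75% and 1.05% were called lower in these comparisons. Npc2, a cholesterol carrier of lysosomes that is abundant in epididymal fluid, fell by 1.36 in controls and by 1.17 in the cKO (adjusted p = 0.000177 and 0.000336 from limma). Ctsh, cathepsin H, fell by 1.38 and 1.31 (adjusted p = 0.000918 and 0.00133 from limma). Both were called on leaving out each of the 12 arrays in turn, and without corpus cKO replicates 1 and 2 together. Lgmn, legumain, fell by 1.09 in the cKO (adjusted p = 0.0441 from limma), a call that among the 12 leave-outs was kept only without corpus cKO replicate 3 (-1.43, adjusted p = 0.00114, against up to 0.173 for the others). Without replicates 1 and 2 it was -0.40 (adjusted p = 0.550).

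The 11 genes of glycan trimming in the endoplasmic reticulum and Golgi had 1 higher and 1 lower member in the control cauda and 0 in the cKO. Of all probe-sets, 1.77% were called higher and 1.75% lower in the control cauda, and 1.64% and 1.05% in the cKO cauda. Man2a1, Golgi α-mannosidase II, was higher in the cauda by 1.15 (standard error 0.17, adjusted p = 0.00428 from limma). The difference was 0.33 in the cKO (adjusted p = 0.487 from limma), with cKO corpus arrays at 9.26 ± 0.24 and control corpus arrays at 8.62 ± 0.33 (SD, n = 3). The direct contrast between the regional differences of Man2a1 in controls and in the cKO was 0.82 and was not called. The cKO value is not given here without corpus cKO replicates 1 and 2. Edem2, a relative of Edem1, fell by 0.55 in the control cauda (adjusted p = 0.0395 from limma), a call that among the 12 leave-outs was kept only without corpus cKO replicate 3 (adjusted p up to 0.150 for the others). Man2a1, a mannosidase gene like Man2b1, thus had a regional estimate of the opposite sign.

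Of 6 lysosomal sulfatases 0 were called by limma in either genotype. The shares of all probe-sets were 1.77% higher and 1.75% lower in controls, and 1.64% and 1.05% in the cKO. At an unadjusted p under 0.05 there were 2 in controls (1 higher and 1 lower), beside 15.9% of all probe-sets. In the cKO there were 4 (2 higher and 2 lower), beside 12.8%. The smallest p-values in the cKO belonged to Galns, at -1.22, and Arsb, at 0.62 on the log2 scale (adjusted p = 0.0623 and 0.131 from limma). Galns was -1.67 (adjusted p = 0.000413) without corpus cKO replicate 3, and -0.32 (adjusted p = 0.635) without replicates 1 and 2. The regulators Tfeb, Tfe3 and Mitf were not called in any of the 5 comparisons. At an unadjusted p under 0.05 there were 0 of the 3 in any, beside 5.66% to 15.9% of all probe-sets. Tfeb had control means of 4.99 ± 0.23 in the corpus against 5.03 ± 0.12 in the cauda (SD, n = 3), below the array medians. Mitf had a log2 difference of 0.52 between the control cauda and corpus (adjusted p = 0.345 from limma). Tfe3 had one of -0.20 in the cKO (adjusted p = 0.577 from limma). None of these lists had a member called for the cKO against the control in either region, beside 0% of all probe-sets.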

How the data were processed

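The deposited table holds a log2 intensity for each probe-set and array, made by the authors with RMA in Partek, and was used with no further normalization. RMA is named in the submitters' processing notes, with its version not given. Probe-sets were named from the array's annotation, and of 41345, 23521 carried 1 symbol, 1820 several and 16004 none here. Of several probe-sets for a gene, that with the highest mean was taken. Group means were fitted over all 12 arrays in limma 3.58.1 under R 4.3.3 (8 residual and 3.18 prior degrees of freedom), with two-sided tests, Benjamini-Hochberg adjustment across the whole table and calls at an adjusted p under 0.05. The fit had no replicate block. The number of arrays limits the precision. Columns of other samples numbered 0, and 0 pairs of arrays were identical.

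The members and gene lists were chosen with earlier results of these data known. Named are all members, list genes with an adjusted p under 0.05 (up to 4 a comparison, otherwise the 2 smallest p-values), and the nearest gene to each member. Outside this rule are Ctsa and Neu1, which were picked after their values were seen, and Tfeb, Dicer1 and the marker Cftr. List levels are sums of linear intensities. The fit was tested on simulated data. Alternatives were each probe-set's own variance, as in the methods' ANOVA, the brighter part of the table, probe-sets with 1 symbol only, quantile normalization, median centring, only the groups compared, a replicate block (statmod 1.5.0) and leaving out each array. Leaving out both corpus cKO arrays apart on the second component was added after seeing the data. The miRNA data of the study were not used here.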

Additional observations from a re-analysis of the deposited data

How the results depend on the processing

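The count of called glycosidases between the regions of controls (1, Fuca1) was 0 in a fit of only the 2 groups compared, 0 to 2 on leaving out 1 array, and 2 (Fuca1 and Man2b1) without both corpus cKO arrays apart on the second component. In the cKO the count of 0 became 1 (Fuca1) with each probe-set's own variance, and the count of 0 for the cKO against the control in the corpus was 0 to 1 on leaving out 1 array. With 1 array left in a group, its spread is assumed to be that of the others. A replicate block kept the count at 1 in controls (Fuca1, adjusted p = 0.0343 from limma) and at 0 in the other 4 comparisons. The regions share animals, but nothing says that equal numbers are the same mouse, and same-numbered corpus and cauda arrays had correlations of deviations from -0.04 to 0.11, over 0.1 in 1 of 6 pairs.

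Signs turned in small differences, and in 2 wider ones of Man2b1. These were its difference between genotypes in the corpus (-1.06 in the main fit) and its contrast of the corpus and cauda effects (-0.99). For the contrast of the corpus and cauda effects, Hexa turned to 0.0065 after quantile normalization, Man2b1 to 0.11 and Gla to -0.11 without both corpus cKO arrays. For the cKO against the control, Fuca1 turned to 0.0503 in the cauda after median centring and Man2b1 to 0.0382 in the corpus without both arrays. Leaving out 1 array gave ranges that cross 0 for the contrast of effects of Hexa (-0.24 to 0.10), Gusb (-0.0323 to 0.26), Gla (-0.21 to 0.35) and Man2b2 (-0.22 to 0.0297), for the corpus effects of Hexa (-0.30 to 0.0431) and Man2b2 (-0.16 to 0.0944), and for the cauda effects of Fuca1 (-0.0693 to 0.055), Hexa (-0.19 to 0.0399), Gusb (-0.0390 to 0.13) and Man2b1 (-0.28 to 0.10). Between the regions of the cKO they crossed 0 for Fuca2 (-0.0059 to 0.17), Gla (-0.14 to 0.42) and Man2b1 (-0.78 to 0.26). The causes were not tested.

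Over all probe-sets, the calls between regions (1456 in controls and 1111 in the cKO) were 669 to 2028 and 614 to 1665 on leaving out 1 array, and 497 in the cKO in a fit of only its 2 groups. The 0 calls for the cKO were 0 to 861 in the corpus and 0 to 118 in the cauda on leaving out 1 array, and 90 in the cauda in a fit of only the 2 groups. The highest of these leave-out counts all came without corpus cKO replicate 3. No member had another probe-set of its own, so that alternative was not run.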
